A study of Mus musculus with 7 samples.

Results

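Mbd3 and 9 further subunit genes of the NuRD complex were followed across 7 mouse cell populations by RNA sequencing. The genes were Mbd3, Mbd2, Chd3, Chd4, Gatad2a, Gatad2b, Mta1, Mta2, Mta3 and Hdac1, chosen by name as subunits of the complex, and all 10 were found among the 29686 genes of the table. Each value is the mean over a gene's exon rows, weighted by exon length, in reads per kilobase of exon and per megaread of depth (RPKM). A level in RPKM is per length. It can be set beside that of another gene only roughly, because stretches held by several exon rows of a gene count in each.

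The study followed the conversion of mouse embryonic fibroblasts (MEF) to neural stem cells (NSC) with the reprogramming factors Oct4, Sox2, Klf4 and Myc (OSKM). Each population had 1 library, so no value has a replicate error and no difference has a test. The MEF library came from strain A12 (Mbd3 flox/-), the usual notation for a floxed allele over a deleted allele. The day 6 library held cells sorted as tdTomato positive, from Nanog-CreER reporter fibroblasts that had received doxycycline and 4OHT from day 1 to 6 without feeder cells. Their strain was B6/129, with the Rosa26-TdTomato reporter from a B6 female and Col1a-OSKM from a 129 male, and the Cre marks only cells in which Nanog was active while 4OHT was present. The Tomato-positive and Tomato-negative OSKM NSC libraries had the same strain and transgenes and came from mechanically subcloned cells without feeders. The brain NSC library came from BDF2 embryos, at E12.5 in the sample description and E13.5 in the growth protocol. The induced pluripotent stem cell (iPSC) library was again strain A12 (Mbd3 flox/-), and the embryonic stem cell (ESC) library was line v6.5 on MEF feeders. For the iPSC library the labels give feeders only with question marks. Strain and allele cannot be told apart from the population, because each population had 1 library.

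The depth read from the steps of the values was 19 megareads in Tomato-positive OSKM NSC and 27 to 58 megareads in the other 6 libraries. The 6 pluripotency markers were all at 2 RPKM or more in the day 6, iPSC and ESC libraries, and the 6 neural stem cell markers were so in the 3 NSC libraries. The 6 fibroblast markers (Col1a1, Col1a2, Col3a1, Thy1, Postn and Lum) summed to 26466 RPKM in MEF, 3189 in ESC, 1567 in Tomato-positive OSKM NSC, 98.1 in Tomato-negative OSKM NSC, 85.1 on day 6, 65.7 in iPSC and 2.89 in brain NSC. None of the 6 was at 0 in any library. The 6 myeloid markers summed to 4743 RPKM in MEF and to 7.36 to 163 RPKM in the other 6 libraries. Summed proliferation markers were lowest in MEF, at 342 RPKM, and stood between 561 and 1607 RPKM in the rest. The day 6 library was uneven along genes: in 17.4% of 7175 genes its last exon was 2-fold or more lower against the other exons than in ESC, compared with 2.65% in iPSC, 2.62% and 2.45% in OSKM NSC with and without Tomato, 2.3% in MEF and 2.15% in brain NSC.

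NuRD is a chromatin complex that joins a nucleosome remodeller to a histone deacetylase. Chd3, Chd4 and Chd5 are alternative ATP-dependent remodellers, Hdac1 and Hdac2 remove acetyl groups from histone tails, and the Mta proteins form the scaffold that holds the deacetylase. Mbd2 and Mbd3 are alternative subunits: Mbd2 binds methylated CpG sites, whereas mammalian Mbd3 binds them poorly. Gatad2a and Gatad2b bridge the Mbd subunit and the remodeller. In embryonic stem cells NuRD is known for restraining pluripotency genes during differentiation, and Mbd3 has been studied as a regulator of reprogramming.

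The sequences that bear on the measurements are coding stretches of Mbd3, whose exons were read one by one, and an exon of Hdac1 beside its genomic copy. They are given 5′ to 3′ from GENCODE transcripts, and all coordinates are GRCm38 (mm10). Mbd3 lies on the minus strand at chr10:80392539-80399550. The coding part of exon 1 (chr10:80399122-80399231) has in capitals the 96 bases that only the long form of the exon holds, and exon 3 (chr10:80395064-80395201) has in capitals the 31 bases absent from a shorter annotated row of the same exon.
Mbd3 exon 1: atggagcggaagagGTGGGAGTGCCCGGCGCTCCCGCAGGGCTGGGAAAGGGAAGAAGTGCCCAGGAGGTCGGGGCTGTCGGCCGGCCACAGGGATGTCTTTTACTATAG
Mbd3 exon 3: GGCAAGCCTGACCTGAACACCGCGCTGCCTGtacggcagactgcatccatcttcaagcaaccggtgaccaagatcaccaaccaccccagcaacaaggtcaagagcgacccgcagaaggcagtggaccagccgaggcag

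Hdac1 (chr4:129516104-129542713, minus strand) has a processed pseudogene on chromosome 17, Gm10093, that matched its transcript at 99.4% of 1444 aligned bases. Of the 9 mismatches, 6 lie in exon 5 (chr4:129522963-129523101), which is shown for that reason, with the differing bases in capitals in both.
Hdac1 exon 5: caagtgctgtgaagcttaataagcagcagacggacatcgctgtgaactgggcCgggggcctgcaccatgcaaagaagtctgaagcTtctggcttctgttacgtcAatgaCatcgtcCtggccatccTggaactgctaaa
Gm10093, same stretch: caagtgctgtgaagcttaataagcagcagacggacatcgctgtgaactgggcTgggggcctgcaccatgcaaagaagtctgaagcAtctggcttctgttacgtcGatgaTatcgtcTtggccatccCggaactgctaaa

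The 10 members differed widely in how much they varied. Chd4, Mta1 and Mta2 stood at 57.5 to 218 RPKM in all libraries, while Chd3 covered 4.81 to 64.9 RPKM and Hdac1 9.56 to 104 RPKM. A ratio is given as log2((a + 1)/(b + 1)) of the RPKM values, and its fold is on that scale. A gene was called where every pair of compared libraries differed by 2-fold or more in the same direction.

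**Figure D1:**
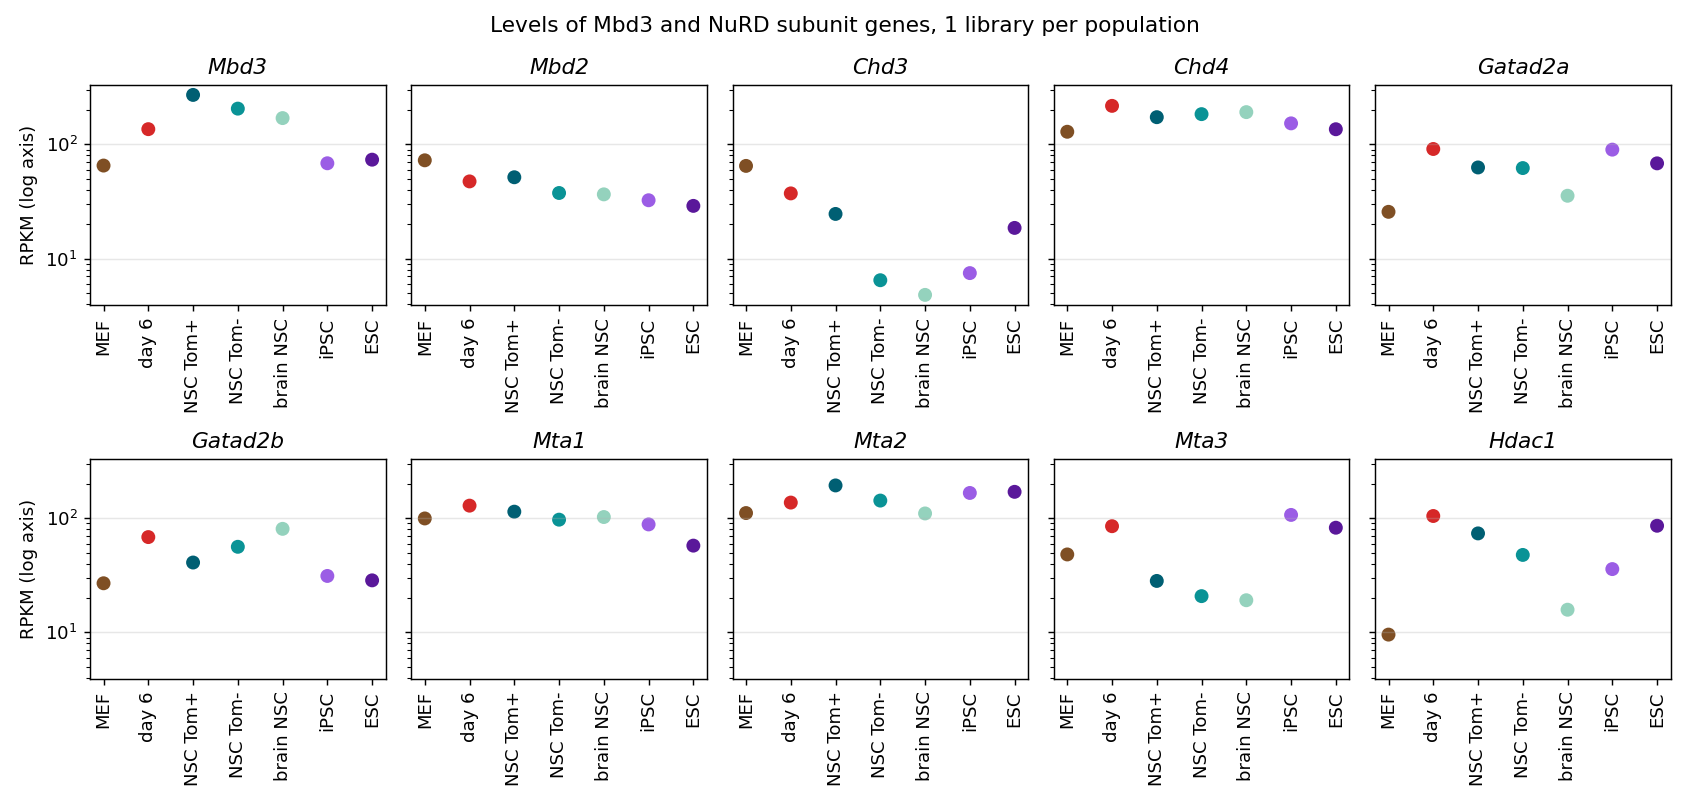
RPKM (log axis) of the 10 genes in the 7 libraries, each point 1 library. Mbd3 is highest in the 3 NSC libraries, at 170 to 271 RPKM, and Mta3 is lowest there, at 19.1 to 28.2 RPKM.

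On day 6 against MEF, 4 of 10 members were higher (Mbd3, Gatad2a, Gatad2b and Hdac1), where 22.4% of all genes tested were higher, and none was lower, where 31.2% of all genes were lower. The median log2 ratio of the 10 members was 0.78, and that of all 16154 genes tested was -0.13. In iPSC and ESC against MEF, Gatad2a and Hdac1 were higher and Mbd2 and Chd3 were lower, 2 of 10 in each direction, where 20.5% and 18.9% of all genes were called higher and lower. The members' median of 0.15 lay beside 0.21 for all genes.

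In the 3 NSC libraries against MEF, Mbd3 was the 1 member called higher and Chd3 the 1 called lower, against 11% and 13.3% of all genes. Without the Tomato-positive library, which holds fibroblast transcripts, Gatad2b joined the higher and Mta3 the lower, 2 in each direction. Fewer pairs make the rule easier to pass, and the 11% and 13.3% belong to all 3 NSC libraries. The 3 NSC libraries against iPSC and ESC gave 1 member higher, Mbd3, and 1 lower, Mta3, with 10.4% of all genes called in each direction. These comparisons of MEF, or of the NSC libraries, share libraries with one another.

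Day 6 against iPSC and ESC gave 1 member higher, Gatad2b, and none lower, against 9.2% and 19.1% of all genes. With ESC left out the count of higher members was 3 (Chd3, Gatad2b and Hdac1). Fewer pairs make the rule easier to pass, and the 9.2% belongs to the comparison with both lines. OSKM NSC against day 6 gave none higher and 1 lower, Mta3, against 24.4% and 11.2% of all genes. With the Tomato-negative library alone 3 were lower (Chd3, Mta3 and Hdac1), but the 24.4% and 11.2% belong to both OSKM NSC libraries.

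OSKM NSC against brain NSC gave Hdac1 as the 1 member called higher and none lower, where 8.16% and 5.08% of all genes were called. Between Tomato-positive and Tomato-negative OSKM NSC, 1 of 10 members was higher, Chd3, and none was lower, with 9.77% and 5.5% of all genes called. In iPSC against ESC none was higher and Chd3 and Hdac1 were lower, 2 of 10, where 7.74% and 14.5% of all genes were called. MEF and iPSC, which carry the Mbd3 flox/- label, against the other 5 libraries gave no member in either direction, and only 0.23% and 0.134% of all genes passed in every pair.

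Mbd3 itself (ENSMUSG00000035478) stood at 271 RPKM in OSKM NSC with Tomato and 206 without, 170 in brain NSC, 136 on day 6, 65.3 in MEF, 73.6 in ESC and 68.4 in iPSC. The 3 NSC libraries were highest, day 6 was intermediate, and MEF, iPSC and ESC lay close together. The NSC libraries averaged 3.21-fold above MEF, with log2 ratios of 1.37 to 2.04 over the 3 pairs. They averaged 2.96-fold above iPSC and ESC, a call that ends when each gene is read from its highest exon alone. The day 6 level was 2.07-fold above MEF, and over exon rows that do not overlap the read ratio was 2.13 (95% exact Clopper-Pearson interval 2.06 to 2.20), with 6 of 6 such rows above MEF and 2 of them 2-fold or more. Such intervals cover counting error only. That set reads the last exon only within a 742-base row that also spans exon 6. The 3 rows of the last exon alone were lower on day 6 than in MEF, at 38.3 against 65.2 RPKM (480 bases), 61.4 against 114 RPKM (180 bases) and 61.1 against 232 RPKM (37 bases). In the listed values MEF and iPSC held the 2 lowest levels, and ESC, for which no Mbd3 allele is named, was 1.07-fold above iPSC. This order depends on the scaling. Equal totals divide MEF by 1.03, iPSC by 1.01 and ESC by 1.23, which puts ESC lowest. Median-of-ratios scaling divides them by 0.84, 1.02 and 1.08, which puts MEF above ESC. A part of the allele was not tested, because strain, allele and population cannot be told apart. Over exon rows that do not overlap, the iPSC to ESC read ratio of Mbd3 was 0.86 (0.83 to 0.89). That ratio uses the depths without further scaling, and its direction depends on this choice.

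The exons of Mbd3 were compared because of the flox/- label of MEF and iPSC. The labels do not say which exons the allele changes, so no exon can serve as a check of the genotype. None of the 15 exon rows overlaps another gene, and every row held reads in every library. An exon row was counted as departing where its log2 ratio to ESC differed by 1 or more from that of the gene. In MEF and in iPSC 1 of 15 rows departed, where 12% and 10.2% of all exon rows did. It was a row of 37 bases within the last exon, and the same single row departed in each NSC library, beside 11.7% to 12.8% of all rows. On day 6, 4 of 15 rows departed, against 22.9% of all rows. The 37-base row held 18.3% of the reads of the 180-base row around it in ESC and 20.5% on day 6, and 38.2% to 46.2% in the other 5 libraries. ESC, the reference, was thus the library that stood apart in this row, together with day 6.

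**Figure D2:**
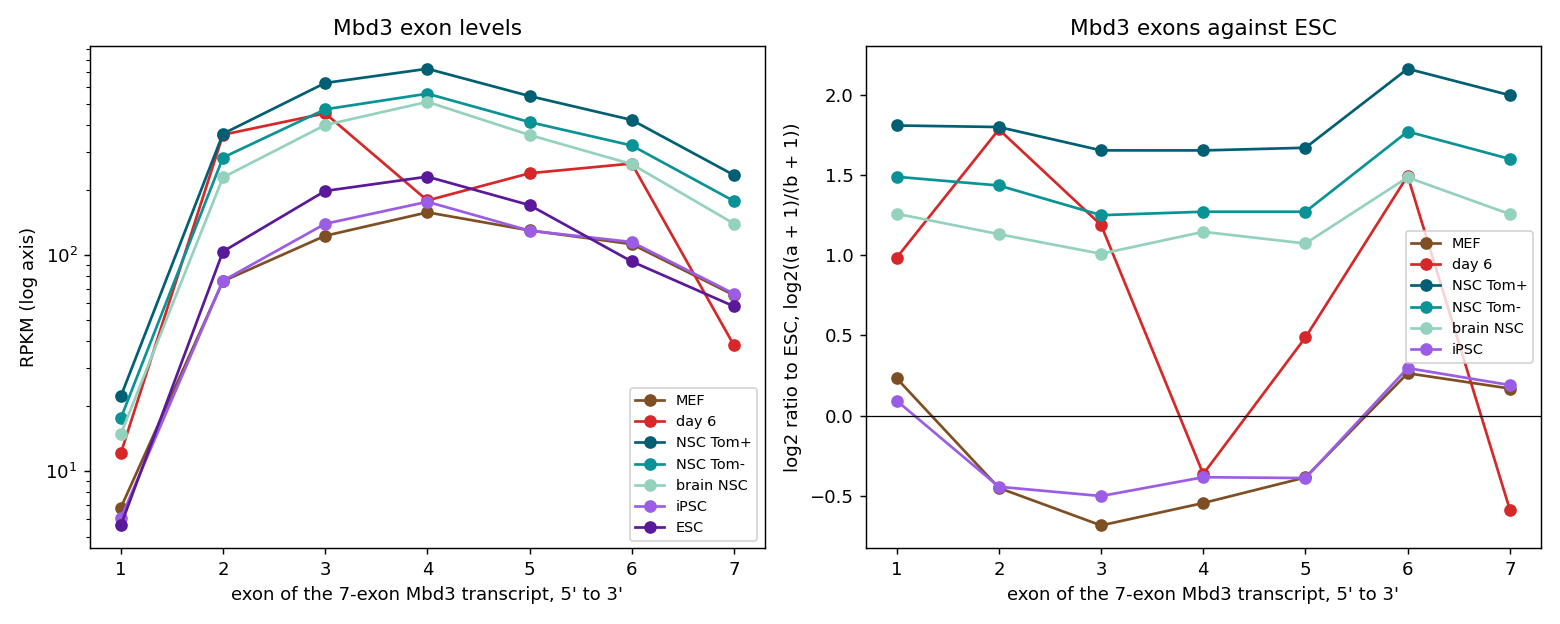
Left, RPKM (log axis) of the 7 exons of the full-length Mbd3 transcript, 1 line per library. Right, log2 ratio of each exon to ESC for the other 6 libraries: MEF and iPSC lie below 0 in exons 2 to 5 and above 0 in exons 6 and 7, and the day 6 line is uneven, with exon 7 at 38.3 RPKM and exon 3 at 452 RPKM.

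Within the transcript, the level of exons 2 to 5 over exon 6 was 1.04 in MEF and 1.08 in iPSC, the 2 lowest values. It was 1.19 on day 6, 1.29 in both OSKM NSC libraries, 1.35 in brain NSC and 1.80 in ESC. Over exon 7 the ratio was 1.80 in MEF, 1.88 in iPSC, 2.31 to 2.55 in the NSC libraries, 2.90 in ESC and 8.23 on day 6. This comparison was chosen after the exon values were seen. MEF and iPSC were the 2 lowest of 7 in the level of the other exons over the last exon in 17.5% of 5789 genes, and the 2 highest in 2.35%. Among the members that could be compared this held for 2 of 9, Mbd3 and Chd4. That rule, met by 1011 genes, asks only whether MEF and iPSC were the 2 lowest. It compares exon rows that do not overlap, and the last such row of Mbd3 is a 742-base row that spans exons 6 and 7. It is thus not a share for the separate exon 6 and exon 7 ratios above.

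Nested exon rows marked stretches held by only some annotated forms of Mbd3, which differ in a splice site or in a start. The 2 forms of exon 1 share their 5′ end and differ at the 3′ end. The 96 bases shown in capitals in exon 1 lie only in the row of the long form, and reads that fell outside the short form made up 56.4% of that row in brain NSC, 53.5% in ESC, 53.4% in MEF, 41.6% in OSKM NSC without Tomato, 36.8% on day 6, 34.8% in OSKM NSC with Tomato and 28.5% in iPSC. The iPSC interval (21.4% to 36.4%) did not overlap those of MEF (44.5% to 62.2%), ESC (43.2% to 63.6%) and brain NSC (48.6% to 63.9%). It overlapped those of day 6 (30.7% to 43.3%) and of OSKM NSC with (27.9% to 42.2%) and without Tomato (36.2% to 47.3%). These intervals cover counting error in single libraries only. Reads in the shared part can come from either form, so the percentages are not shares of the forms. The row held 99 to 317 reads per library. The 84 annotated bases before exon 3, part of a longer internal exon of another transcript, took 1.88% to 6.85% of the reads of their row. The 124 bases before exon 2, which begin a further transcript, took at most 1.60%, and on day 6 none of 2648 reads, with an upper bound of 0.139%.

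Mbd2 (ENSMUSG00000024513), the alternative subunit that binds methylated CpG, had the opposite order to Mbd3 between MEF and the NSC libraries. It stood at 72.6 RPKM in MEF, 29.0 in ESC, 32.5 in iPSC, 47.4 on day 6, 36.5 in brain NSC and, in the OSKM NSC cultures, 37.6 without and 51.6 with Tomato. MEF was highest and the pluripotent lines lowest, with a 2.32-fold lower mean level in iPSC and ESC than in MEF. As a share of summed Mbd2 and Mbd3 levels, which no scaling of a library can move, Mbd3 made up 47.4% in MEF. The share was 74.1% on day 6, 84.0%, 84.6% and 82.3% in Tomato-positive, Tomato-negative and brain NSC, 71.7% in ESC and 67.8% in iPSC. Over exon rows that do not overlap, the Mbd3 share was 40.6% in MEF and 61.4% (iPSC) to 80.9% (Tomato-negative OSKM NSC) elsewhere. Mbd3 thus exceeded Mbd2 in every library except MEF.

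**Figure D3:**
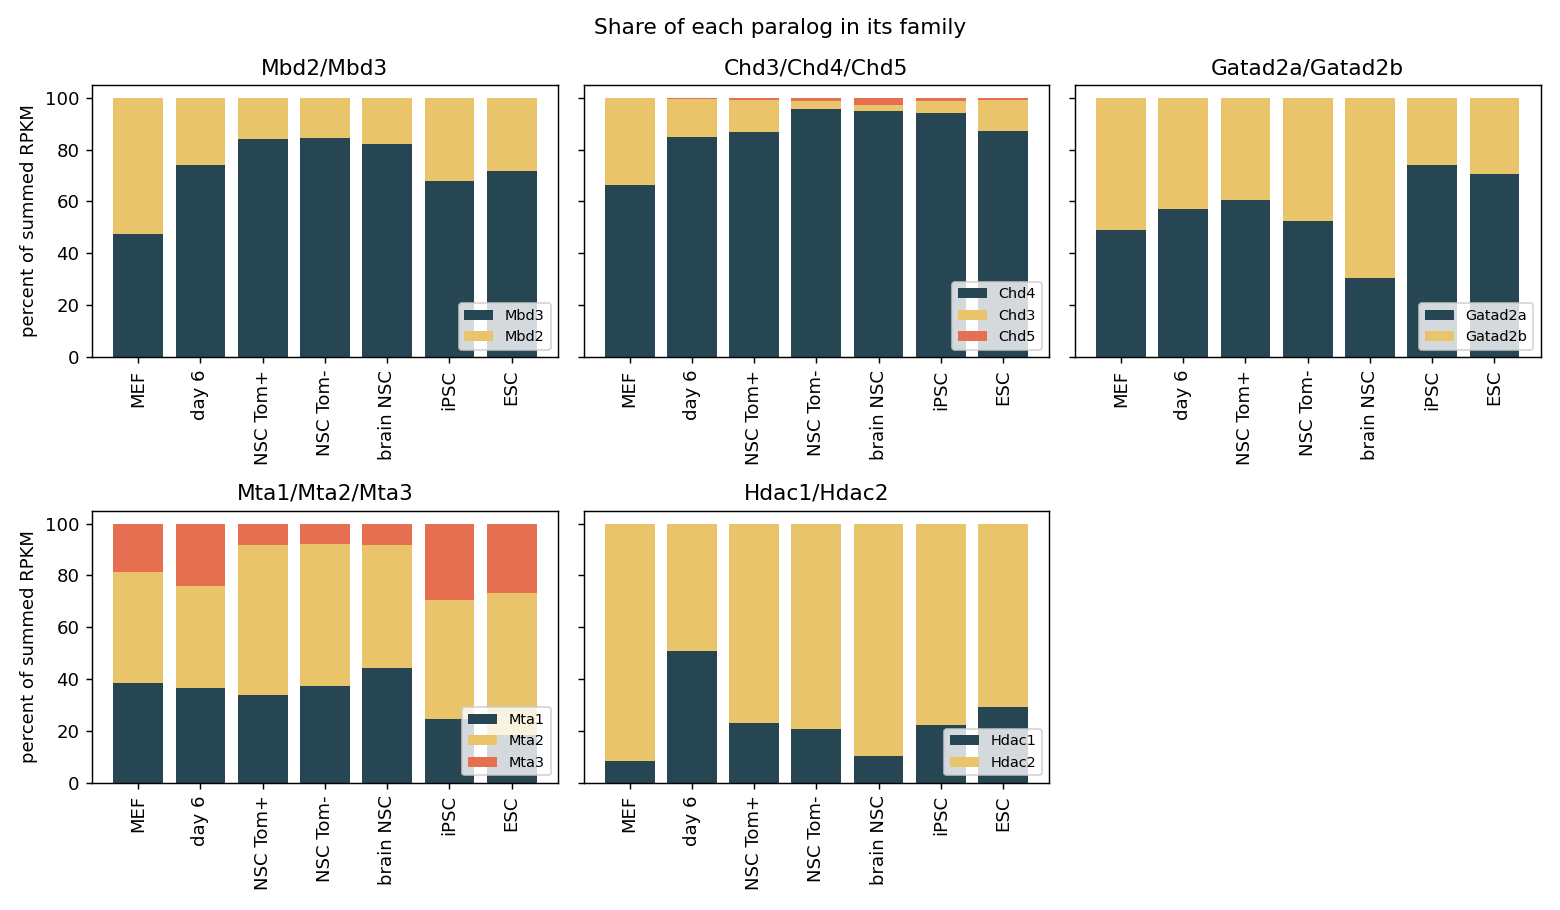
Share of each paralog in the summed RPKM of its family, in percent, 1 bar per library. Mbd3 holds 47.4% in MEF and between 82.3% and 84.6% in the NSC libraries, and Mta3 holds 7.98% to 8.40% there.

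Chd4 (ENSMUSG00000063870, chr6:125095981-125130591), the main remodeller of the complex, was the most abundant Chd member everywhere. Its level was 173 RPKM in OSKM NSC with Tomato and 184 without, 192 in brain NSC, 218 on day 6, 129 in MEF, 136 in ESC and 153 in iPSC. The highest library, day 6, was 1.68-fold above the lowest, MEF. No comparison called it.

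Chd3 (ENSMUSG00000018474), its paralog (chr11:69343273-69369406), was highest in MEF and lowest in brain NSC. Chd3 stood at 64.9 RPKM in MEF, 18.6 in ESC, 7.47 in iPSC, 37.3 on day 6, 4.81 in brain NSC and, in the OSKM NSC cultures, 6.47 without and 24.6 with Tomato. It made up 33.4% of the summed Chd3, Chd4 and Chd5 levels in MEF and 2.38% in brain NSC. Between the OSKM NSC libraries it was 3.43-fold higher in the Tomato-positive one, and over non-overlapping exons the read ratio was 3.79 (3.58 to 4.01). All 38 of 38 such exon rows at 2 RPKM or more were 2-fold or more higher, with log2 ratios from 1.35 to 2.17. Fibroblast markers differed in the same direction, 1567 against 98.1 RPKM summed, and Chd3 was highest in MEF, and the part of fibroblast transcripts in this difference was not tested. In bulk libraries fewer cells of a type and less RNA per cell cannot be told apart.

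In iPSC Chd3 was 2.31-fold lower than in ESC, and 29 of 38 exon rows were 2-fold or more lower. Summed fibroblast markers came to 3189 RPKM in ESC against 65.7 in iPSC, and their part was not tested here either. Scaling both libraries to equal totals left the iPSC difference in Chd3 under 2-fold. On day 6 summed fibroblast markers were at 85.1 RPKM, and their part was not tested. Chd3 stood there above every library except MEF. Its exons differed in direction there, with 8 above and 31 below MEF. Chd5, the neural paralog, was low throughout, from 0.37 RPKM in MEF to 5.56 RPKM in brain NSC.

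**Figure D4:**
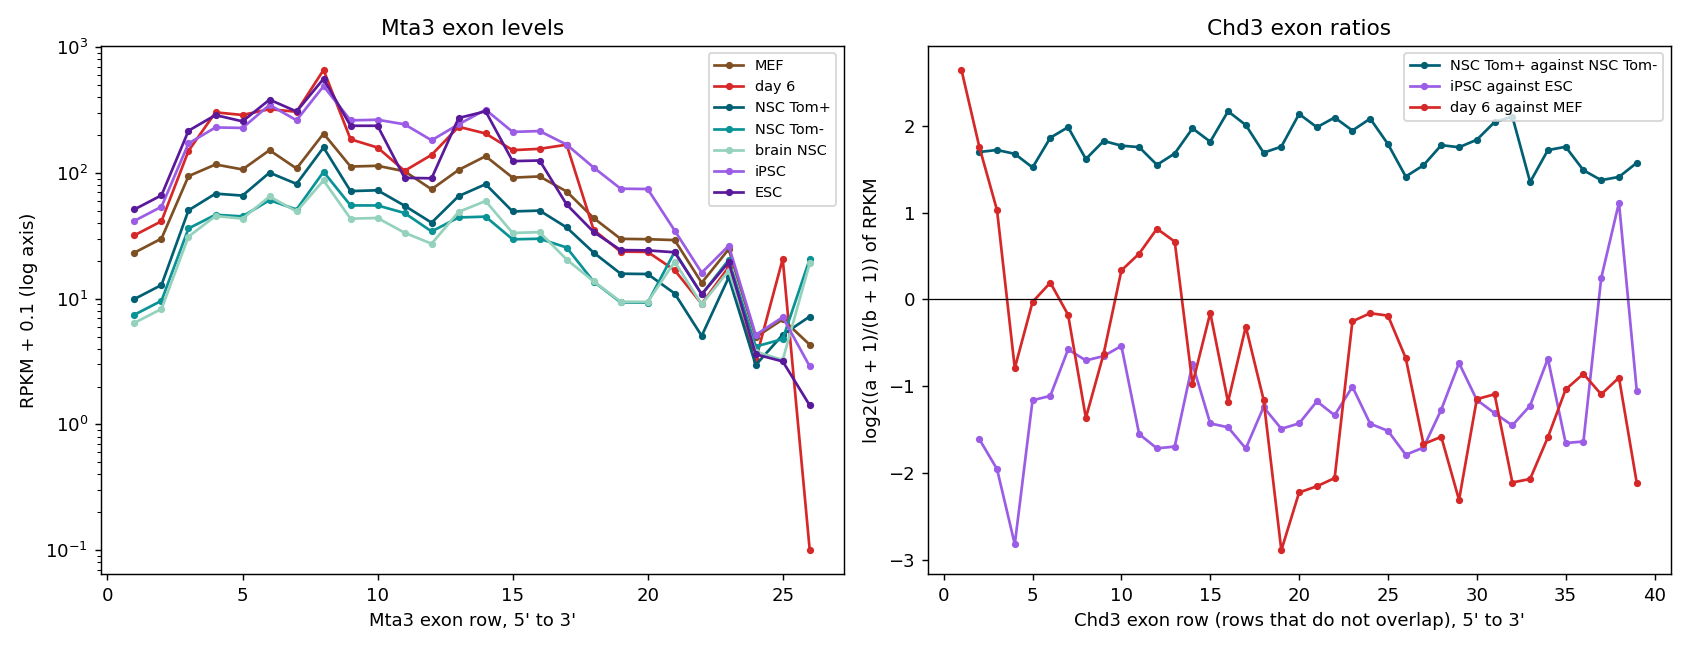
Left, RPKM + 0.1 (log axis) of the Mta3 exon rows from 5′ to 3′, 1 line per library: the libraries spread 5.90-fold over the upstream exons and 2.22-fold over the long-transcript exons at chr17:83800050-83800136 and chr17:83804451-83804597. Right, log2 ratio of the Chd3 exon rows that do not overlap: the Tomato-positive line stays between 1.35 and 2.17, while the day 6 line crosses 0.

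Gatad2a (ENSMUSG00000036180, chr8:69907076-69996384) was lowest in MEF and high in day 6 and pluripotent cells. It stood at 25.7 RPKM in MEF, 68.3 in ESC, 90.0 in iPSC, 91.2 on day 6, 35.5 in brain NSC and, in the OSKM NSC cultures, 62.1 without and 62.9 with Tomato. Day 6 was 3.45-fold above MEF, with 14 of 14 exon rows 2-fold or more higher, so the uneven day 6 profile did not reverse any exon. The 2 pluripotent lines averaged 2.98-fold above MEF.

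Gatad2b (ENSMUSG00000042390, chr3:90293178-90363407) was instead highest in brain NSC. Its levels were 40.9 RPKM in OSKM NSC with Tomato and 56.2 without, 80.7 in brain NSC, 68.3 on day 6, 26.9 in MEF, 28.5 in ESC and 31.2 in iPSC. MEF, iPSC and ESC were low and close together, as they were for Mbd3. On day 6 it was 2.48-fold above MEF, with 10 of 10 exon rows above 0 and 7 of them 2-fold or more. Gatad2a made up 30.6% of the summed pair in brain NSC and 74.3% in iPSC, so the larger paralog differed between these populations.

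Among the scaffold genes, Mta1 (ENSMUSG00000021144, chr12:113098278-113137206) and Mta2 (ENSMUSG00000071646, chr19:8941875-8952303) were called in no comparison. Mta1 stood at 99.5 RPKM in MEF, 57.5 in ESC, 88.2 in iPSC, 129 on day 6, 102 in brain NSC and, in the OSKM NSC cultures, 97.1 without and 114 with Tomato. Mta2 stood at 111 RPKM in MEF, 170 in ESC, 166 in iPSC, 137 on day 6, 110 in brain NSC and, in the OSKM NSC cultures, 143 without and 194 with Tomato. In the listed values ESC was lowest for Mta1 and Tomato-positive OSKM NSC highest for Mta2. Median-of-ratios scaling divides Tomato-positive OSKM NSC by 1.23 and iPSC by 1.02, which puts Mta2 higher in iPSC. The order of Mta1 and Mta2 in MEF, day 6 and brain NSC depends on the exon rows used. In MEF they made up 38.5% and 42.9% of the summed Mta levels, and 43.2% and 40.0% over rows that do not overlap.

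Mta3 (ENSMUSG00000055817, chr17:83706163-83821516) was lowest in the 3 NSC libraries and highest in iPSC. It stood at 28.2 RPKM in OSKM NSC with Tomato and 20.8 without, 19.1 in brain NSC, 85.1 on day 6, 48.1 in MEF, 82.5 in ESC and 107 in iPSC. The NSC libraries did not overlap the other 4. They averaged 4.06-fold below iPSC and ESC, and OSKM NSC averaged 3.41-fold below day 6. Mta3 made up 7.98% to 8.40% of the summed Mta levels in the NSC libraries and 18.6% to 29.6% in the other 4.

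The difference in Mta3 was not equal along the gene. Over the 13 upstream rows that do not overlap, the level was 55.4 RPKM in OSKM NSC with Tomato and 38.5 without, 35.8 in brain NSC, 190 on day 6, 93.2 in MEF, 183 in ESC and 211 in iPSC. Over the exons at chr17:83800050-83800136 and chr17:83804451-83804597, which belong to the long transcripts, it was 13.3 RPKM in OSKM NSC with Tomato and 21.5 without, 17.7 in brain NSC, 17.4 on day 6, 26.3 in MEF, 20.8 in ESC and 29.4 in iPSC. The highest library exceeded the lowest 5.90-fold upstream and 2.22-fold in the long-form exons. The long-form level over the upstream level was 0.56 in Tomato-negative and 0.50 in brain NSC, 0.28 in MEF, 0.24 in Tomato-positive OSKM NSC, and 0.091 to 0.14 on day 6 and in the pluripotent lines. These stretches were chosen after the exon values were seen.

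Hdac1 (ENSMUSG00000028800) was among the most variable members and is uncertain, because of the copy shown above. It was listed at 9.56 RPKM in MEF, 85.9 in ESC, 35.8 in iPSC, 104 on day 6, 15.8 in brain NSC and, in the OSKM NSC cultures, 47.7 without and 73.6 with Tomato. Gm10093 was listed at 173 RPKM in OSKM NSC with Tomato and 111 without, 39.7 in brain NSC, 226 on day 6, 47.4 in MEF, 259 in ESC and 206 in iPSC. The copy was above Hdac1 in every library. Exons of Hdac1 differed by over an order of magnitude within a library, from 0.55 RPKM in exon 1 to 219 RPKM in exon 5 in ESC. Exon 5, with 6 of the mismatches, stood at 11.2 RPKM in MEF, 219 in ESC, 39.4 in iPSC, 128 on day 6, 40.8 in brain NSC and, in the OSKM NSC cultures, 142 without and 208 with Tomato. Exon 14, of which 23 of 533 bases align to the copy, stood at 4.84 RPKM in MEF, 125 in ESC, 12.6 in iPSC, 160 on day 6, 17.8 in brain NSC and, in the OSKM NSC cultures, 85.2 without and 135 with Tomato.

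**Figure D5:**
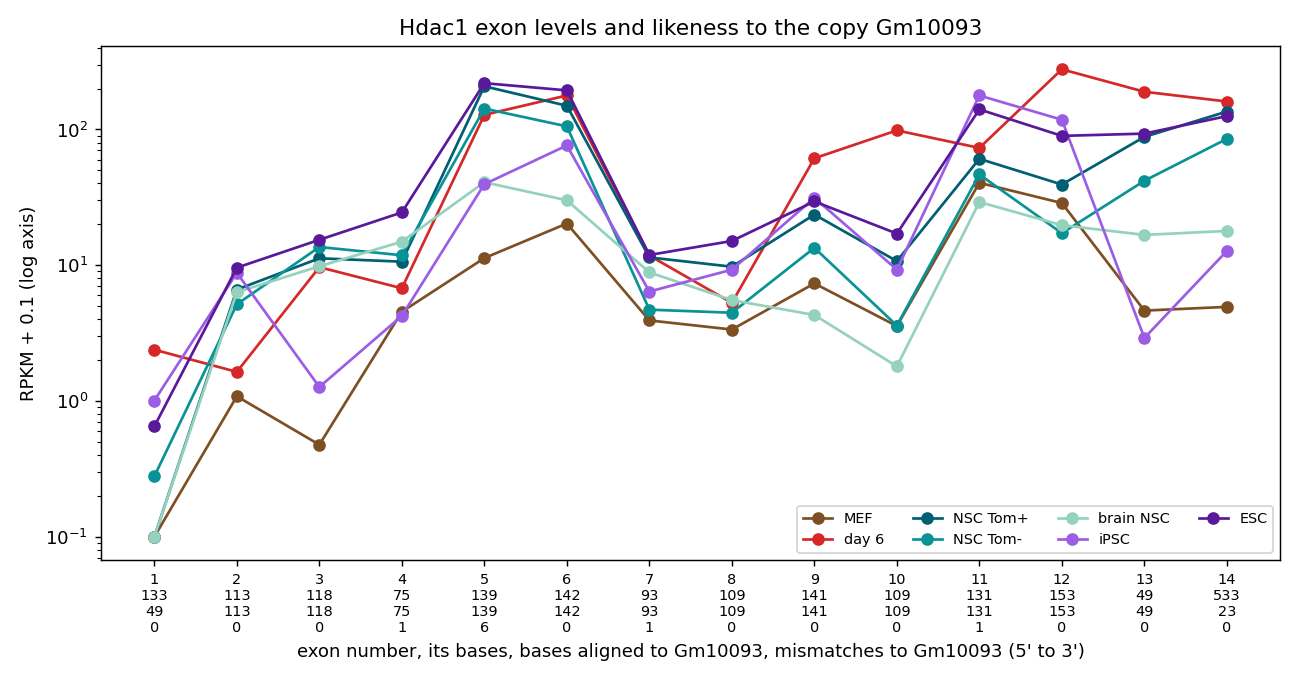
RPKM + 0.1 (log axis) of the 14 Hdac1 exons, 1 line per library, with each exon's length, the bases aligned to Gm10093 and the mismatches under the axis. Exon 5, with 6 mismatches, reaches 219 RPKM in ESC, while exons 7 and 8 stay at 15.0 RPKM or less in all libraries.

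Summing the reads of Hdac1 and Gm10093 gave 88.0 reads per megaread in MEF and 89.6 in brain NSC, 258 and 400 in OSKM NSC without and with Tomato, 370 in iPSC, 539 on day 6 and 548 in ESC. Folds of these sums have no pseudocount. Day 6 was then 6.12-fold above MEF, in place of 10.9-fold for Hdac1 alone without a pseudocount and 9.99-fold with it. OSKM NSC remained 3.59-fold above brain NSC. The iPSC sum was 1.48-fold below ESC, in place of 2.36-fold with the pseudocount for Hdac1 alone, which ends the call. Most of each sum was listed under the copy, at 297 of 370 reads per megaread in iPSC and 373 of 548 in ESC. The sum therefore does not measure Hdac1 apart from its copy, and it does not hold reads of AC125456.1. In exon 14, of which 23 of 533 bases align to the copy, iPSC stood at 12.6 RPKM and ESC at 125. Hdac1 held 22.2% of the summed reads in MEF and 19.7% in iPSC, the 2 libraries of strain A12, and 31.9% to 39.5% in the others. A part of the strain in this split was not tested, because strain, allele and population cannot be told apart. Proliferation markers were also lowest in MEF, at 342 RPKM summed, and brain NSC, at 561, the libraries with the lowest sums, and their part was not tested. Hdac2, its paralog, stood at 245 RPKM in OSKM NSC with Tomato and 182 without, 138 in brain NSC, 101 on day 6, 107 in MEF, 207 in ESC and 125 in iPSC.

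The other subunits of the complex are given by their ranges. Rbbp4, a histone-binding subunit whose exons overlap other genes, ranged from 139 RPKM on day 6 to 505 in ESC. Rbbp7, its paralog, which has a copy, Gm6382, 97.1% identical over 942 aligned bases, ranged from 125 RPKM in brain NSC to 324 in ESC. Cdk2ap1, a small subunit with a 99.4% identical copy, Gm12184, stood at 135 to 165 RPKM in MEF, day 6, iPSC and ESC and at 296 to 473 RPKM in the NSC libraries. Cdk2ap1 took 44.3% to 47.0% of the reads summed with its copy, with little difference between libraries. Cdk2ap2 was highest in iPSC, at 84.7 RPKM, and lowest on day 6, at 19.6 RPKM.

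A wider set of 60 genes covered the other subunits, NuRD partners, other MBD and CHD proteins and the SIN3, CoREST, NCoR and MiDAC deacetylase complexes. On day 6 against MEF 11 of 56 tested were higher and 3 lower, where 22.4% and 31.2% of all genes were called higher and lower. The 12 SIN3 genes held 4 of the higher ones (Sin3a, Sap30, Suds3 and Brms1) and the 6 other CHD remodellers held 3 (Chd1, Chd7 and Chd9). In iPSC and ESC against MEF 9 of 56 were higher and 2 lower, where 20.5% and 18.9% of all genes were called. In the NSC libraries against MEF 4 of 56 were higher and 2 lower, beside 11% and 13.3% of all genes. In iPSC against ESC 4 of 54 were higher and none lower, beside 7.74% and 14.5%. In each of these 4 comparisons the share of the wider set called was below that of all genes in both directions. This did not hold on day 6 against iPSC and ESC. There 6 of 57 were higher and 3 lower, beside 9.2% and 19.1% of all genes, so the share called higher was above that of all genes.

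Binding partners of NuRD included genes listed near 0 in some populations. Sall4, a zinc finger protein of pluripotent cells, stood at 23.6 RPKM on day 6, 53.2 in iPSC and 28.3 in ESC, and at 0.025 to 0.27 RPKM elsewhere. Sall1 stood at 1.58 RPKM in MEF and 2.98 on day 6, and at 23.3 to 71.8 RPKM in the other 5. Pwwp2b was highest in MEF, at 18.4 RPKM, and 1.31 to 5.36 RPKM elsewhere. Chd7, a remodeller of neural progenitors, was listed among the other CHD remodellers and not among these partners. It stood at 2.25 RPKM in MEF, 7.09 in ESC, 6.42 in iPSC, 33.0 on day 6, 44.3 in brain NSC and, in the OSKM NSC cultures, 36.3 without and 17.7 with Tomato.

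In the other deacetylase complexes, Sap30 of SIN3 ranged from 26.1 RPKM in Tomato-negative OSKM NSC to 144 on day 6. Rcor3 of CoREST ranged from 2.25 RPKM on day 6 to 16.8 in brain NSC, and Rcor2 from 18.7 RPKM in MEF to 77.1 in brain NSC. The corepressor Ncor1 ranged from 52.2 RPKM in MEF to 182 in brain NSC. Trerf1 of MiDAC was highest on day 6, at 33.8 RPKM, and lowest in ESC, at 4.90 RPKM.

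Profiles like that of Mbd3 were sought among 9251 protein-coding genes at 2 RPKM or more in every library, by the root mean square difference of centred log2 levels over the 7 libraries. The nearest were Thap12 (0.10), Hsd17b7 (0.15), Vma21 (0.16), 0610010F05Rik (0.16) and Smarce1 (0.18), and the median over all was 0.87. Thap12 stood at 87.4 RPKM in OSKM NSC with Tomato and 78.8 without, 57.0 in brain NSC, 44.6 on day 6, 19.7 in MEF, 26.5 in ESC and 24.4 in iPSC. Smarce1, a subunit of the BAF remodelling complex, stood at 66.9 RPKM in OSKM NSC with Tomato and 49.5 without, 41.9 in brain NSC, 33.7 on day 6, 22.3 in MEF, 20.5 in ESC and 19.5 in iPSC. Among the other members the nearest was Gatad2b, at 0.57 and rank 952, and Chd3 was the farthest, at 1.61.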

How the data were processed

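Processed values of 7 mouse RNA-seq libraries were used, 1 per population. The deposited values are RPKM per Ensembl exon. That unit was read from the values. The submitters' processing notes name TopHat2 2.0.10, Bowtie, bedtools, CASAVA 1.8.2 and the build mm10, without roles, and the labels' protocols name a TruSeq RNA v2 kit. Strand was not used, and stretches held by several exon rows of a gene count in each. Of 279252 exon rows, 270168 were matched by ID to GENCODE M21 (GRCm38). RPKM times exon length fell on whole reads, within 0.01 read, for 96.3% to 96.5% of values, which gave the depths. A gene was compared at 2 RPKM or more in at least 1 compared library, with a pseudocount of 1 RPKM and a fold of 2. Read ratios have 95% exact intervals over exon rows that do not overlap. Transcripts were aligned with blastn 2.17.0. Depth recovery and calls were tested on simulated data. With 1 library per group there is no test.

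Wider genes are named as all other subunits and up to 3 per list with the largest range, with the 5 nearest to Mbd3. Of the genes this rule names, some are not reported here. The genes Sin3a and Suds3 were named after their values were seen. Members and lists were chosen with earlier results of these data known. Alternatives were 2 scalings, pseudocounts of 0.25 and 4, other floors and other exon sets. Summing Hdac1 with its copy and leaving out ESC, Tomato-positive OSKM NSC or day 6 were added after seeing the data.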

Additional observations from a re-analysis of the deposited data

How the results depend on the processing

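Of 228 recomputed counts of members or exons, 210 were within 1.5 times the reported count and 18 were not, and no called ratio of a member changed sign. Members higher on day 6 than in iPSC and ESC numbered 3 instead of 1 with equal totals, with median-of-ratios scaling and with ESC left out, and 2 with the highest exon of each gene. Members lower in iPSC than in ESC numbered 0 instead of 2 with equal totals, and 1 with a pseudocount of 4, with the highest exon, or with Hdac1 summed with its copy. Members lower in the 3 NSC libraries than in MEF numbered 3 instead of 1 with median-of-ratios scaling, and 2 with Tomato-positive OSKM NSC left out, when 2 were higher. Members lower in OSKM NSC than on day 6 numbered 2 instead of 1 with median-of-ratios scaling or the highest exon, and 3 without Tomato-positive OSKM NSC. With a library left out fewer pairs are compared, which makes the rule easier to pass. With the highest exon, 7 instead of 4 members were higher on day 6 than in MEF, and 0 instead of 1 were higher in the NSC libraries than in iPSC and ESC. The highest exon also moved the median log2 ratio of all genes on day 6 against MEF from -0.13 to 0.044. The shares of all genes given above belong to the reported settings, and none is set beside these recomputed counts. Among Mbd3 exons of 60 bases or longer, 0 instead of 1 departed from the gene in iPSC and in MEF. The cause was not tested. Median-of-ratios scaling moved the median log2 ratio of all genes from 0.27 to -0.063 for the NSC libraries against MEF, from 0.41 to 0.057 for OSKM NSC against day 6 and from 0.21 to -0.11 for iPSC and ESC against MEF. Equal totals moved it from -0.18 to 0.10 for iPSC against ESC. No paired analysis was possible because each group has 1 library.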
